A study of Homo sapiens with 4 samples.

Results

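HOPX, a single gene with 5 RefSeq transcripts, was followed through 4 RNA-seq libraries of day 14 cardiomyocyte cultures, out of 23615 gene symbols and 43497 transcripts in the deposited tables. Its members were the rows that carry its name in the gene table and in the transcript table. The gene was chosen by its FPKM in these same 4 libraries, so its levels and those of its transcripts are given as a description without a test. All cultures came from RUES2, a human embryonic stem cell line, and mesoderm was induced in both groups by A100/B5, that is, activin A at 100 ng/ml followed by BMP4 at 5 ng/ml. In the ECsXAV group, VEGF was given from day 2 to form hemogenic endothelial cells (ECs). By the study's methods this was in Stempro34 medium that also held the growth factor bFGF and further BMP4, while cardiac differentiation used RPMI medium. From day 5 the ECsXAV group received 2 µM XAV, a tankyrase inhibitor that lowers Wnt/β-catenin signaling. By the study's methods this XAV was given in RPMI medium and left out of the RPMI medium that followed up to day 14. The mesoderm induction described there also used CHIR, an agonist of this signaling. In the CPC group, A100/B5 cardiac progenitor cells (CPCs) were carried to cardiomyocytes by directed differentiation, for which the study's methods describe 1 µM XAV on day 3 in a subset of experiments. Each group had 2 biological replicates, made from unsorted cells of a single line, so that fewer cells that express a gene and less RNA per cell cannot be told apart. The comparison sets cardiomyocyte cultures taken through endothelial conditions against those made directly from progenitors. The route, the early medium, the growth factors and the XAV treatment differ together between the groups and cannot be told apart.

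HOPX encodes the homeodomain-only protein, a very small protein whose homeodomain lacks the residues needed to bind DNA. In the developing heart it is known to act downstream of NKX2-5, to bind serum response factor (SRF) and block its activation of muscle genes, and to recruit histone deacetylases. It is also known to work with SMAD proteins to lower Wnt signaling in committed cardiomyoblasts, and its level is used as a sign of cardiomyocyte maturation. Outside the heart it marks certain stem cells and flat alveolar cells of the lung.

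HOPX lies on the minus strand of chromosome 4, from 57514155 to 57548043 in GRCh37, the build named hg19 in the labels. GENCODE release 44 lists 12 protein-coding HOPX models with 2 separate start regions, the distal one with 6 models and the proximal one with 6, with 24769 bases between them. All 6 proximal models and 3 of the 6 distal models have a coding sequence of 73 codons, and the other distal models have 91, 94 and 112 codons. The transcripts therefore differ mainly in where they start and in their first exons. The deposited tables name transcripts by RefSeq accession without coordinates, and which start each accession uses was not analysed here.

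**Figure D1:**
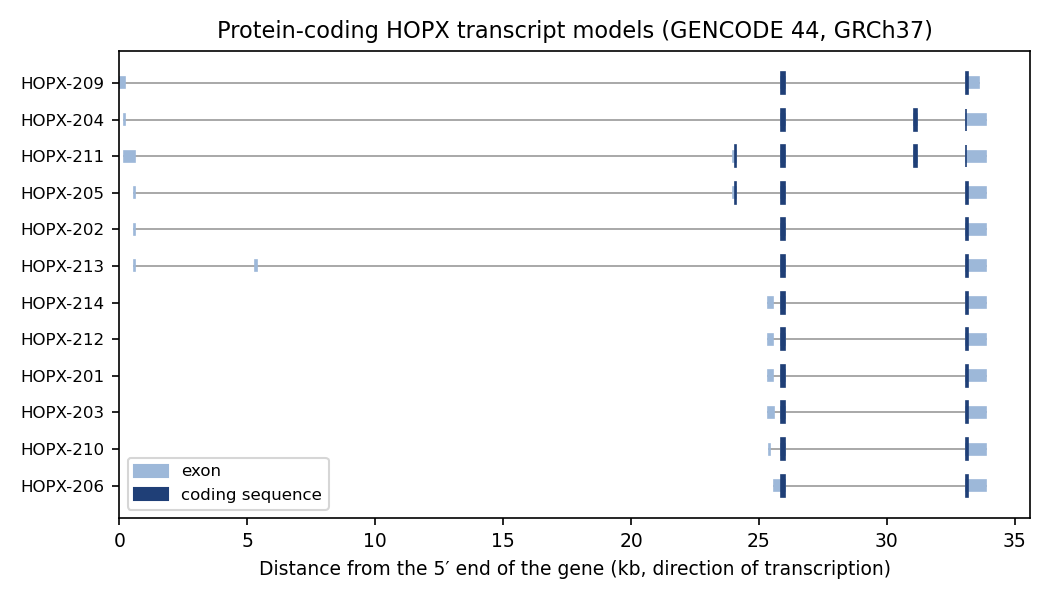
The 12 protein-coding HOPX models of GENCODE release 44, drawn by distance in kb from the 5′ end of the gene in the direction of transcription, with exons as pale boxes and coding sequence as dark boxes. The 6 upper models start in the distal region and the 6 lower ones in the proximal region, and all of them end with the coding exons on the right.

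The 250 bases before each of the 2 RefSeq starts of HOPX are shown because a HOPX promoter would be looked for there. In the distal region 3 of the 6 coding GENCODE models start upstream of the window shown, so it is not the sequence before their start. They were read from RefSeq sequence of GRCh38.p14 and matched exactly, at a single place each, to GRCh37 at chr4:57547463-57547712 for the distal and chr4:57522684-57522933 for the proximal start, both on the minus strand. Capitals mark a match to AAGTG, the core letters bound by NKX2-5, on either strand.
distal: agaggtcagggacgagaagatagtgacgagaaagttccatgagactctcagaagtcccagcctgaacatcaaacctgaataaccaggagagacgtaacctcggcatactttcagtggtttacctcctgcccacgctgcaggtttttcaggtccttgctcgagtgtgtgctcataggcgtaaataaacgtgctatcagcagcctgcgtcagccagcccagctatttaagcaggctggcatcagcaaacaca
proximal: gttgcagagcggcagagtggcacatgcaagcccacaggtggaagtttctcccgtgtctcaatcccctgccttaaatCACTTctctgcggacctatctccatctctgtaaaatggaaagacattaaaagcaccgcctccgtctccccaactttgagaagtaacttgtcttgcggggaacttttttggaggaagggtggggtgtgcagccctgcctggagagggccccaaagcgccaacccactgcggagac
The proximal window held 1 match to AAGTG, beginning 174 bases before the start on the opposite strand, and the distal window held 0 matches. At least 1 match was found in 37.6% of 35116 windows of the same length before RefSeq starts. Neither window held TATAAA (10.7% of all windows), GATAA (20.4%), GGGCGG (42.6%) or a CArG box, the site bound by SRF (1.16%). The distal window had 9 CpG pairs and a GC content of 50.8%, and the proximal window had 8 and 54.8%, beside medians of 11 and 58.0% over all windows. A match of letters is a description of these windows and does not show binding.

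The precision of the HOPX values depends on how many fragments stand behind them. In FPKM, the unit of all levels here, a fragment count is divided by transcript length and by library size, but genes read only once or a few times fall on evenly spaced steps. From these steps and GENCODE transcript lengths the mapped fragments were estimated at 22300000 and 11200000 for ECsXAV replicates 1 and 2, and at 19400000 and 17800000 for CPC replicates 1 and 2. Markers of cardiomyocytes were high in every library, with 12355 to 13258 summed FPKM over 7 genes. Markers of endothelial cells were low, with 11.9 to 15.2 summed FPKM over 10 genes, of which the receptor KDR gave 7.06 to 10.8 FPKM, and VWF was under 0.1 FPKM in every library.

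HOPX stood at a higher level in ECsXAV than in CPC cardiomyocytes, names that stand here for the unsorted cultures as labelled. Which cells of the cultures carried HOPX was not tested. It had 13.1 FPKM in ECsXAV replicate 1 and 12.5 FPKM in ECsXAV replicate 2. In CPC cardiomyocytes it had 0.992 FPKM in replicate 1 and 0.90 FPKM in replicate 2. Both ECsXAV libraries thus lay far above both CPC libraries, and the replicates of a group differed by only 1.05-fold in ECsXAV and 1.10-fold in CPC. The mean was 12.8 ± 0.429 FPKM (SD, n = 2) in ECsXAV and 0.946 ± 0.0652 FPKM (SD, n = 2) in CPC cardiomyocytes, a 13.5-fold ratio of the means. Across the pairs of libraries the ratio ran from 12.6-fold to 14.6-fold, a range that does not include the counting error given below. Libraries of the groups did not overlap for 49.8% of the 12398 genes with a mean of at least 1 FPKM, and ECsXAV lay above CPC for 25.4% of them, so the absence of overlap alone does not set HOPX apart.

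**Figure D2:**
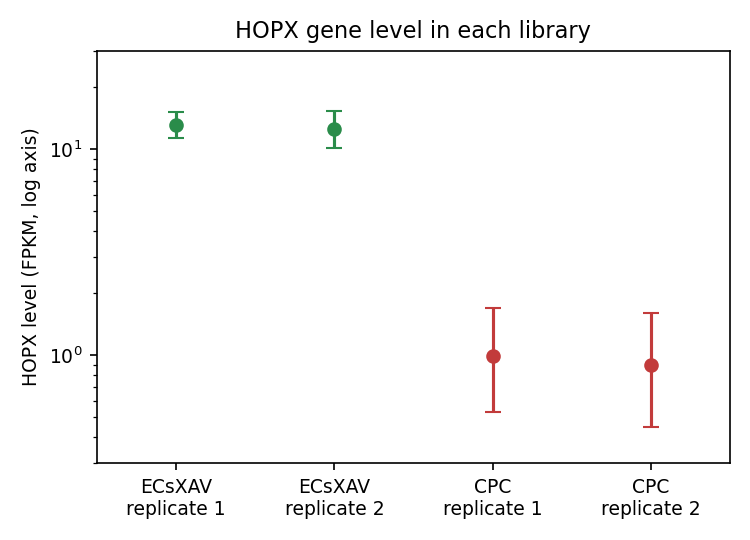
HOPX level in each library in FPKM on a log axis, with ECsXAV in green and CPC in red, and with bars for the 95% counting interval at the fewest fragments that the HOPX transcript lengths allow. The ECsXAV libraries sit at 13.1 and 12.5 FPKM and the CPC libraries at 0.992 and 0.90 FPKM, with intervals that do not reach each other.

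At the estimated depth and with HOPX transcripts of 904 to 1672 bases, these levels stand for 200 to 425 fragments in ECsXAV replicate 1 and 96 to 203 in ECsXAV replicate 2. In CPC cardiomyocytes they stand for 13 to 28 fragments in replicate 1 and 11 to 23 in replicate 2. HOPX was therefore detected in both CPC libraries, but with few fragments. With the fewest fragments, the exact 95% Poisson interval was 0.528 to 1.70 FPKM in CPC replicate 1 and 0.449 to 1.61 FPKM in CPC replicate 2, against 11.4 to 15.1 FPKM and 10.1 to 15.3 FPKM in the ECsXAV replicates. These intervals cover counting error only.

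Within a library, HOPX stood above 75.2% and 72.9% of the symbols with any FPKM in the ECsXAV replicates, and above 29.5% and 28.4% of them in the CPC replicates. Among 12088 tested genes other than microRNA and small nucleolar RNA genes, 13 including HOPX (0.108%) had a ratio of ECsXAV to CPC means at least as large as that of HOPX. Of the others, 2 also had an ECsXAV mean at least as high. TGFBI, a secreted matrix protein induced by TGF-β, stood at 13.7 and 20.02 FPKM in ECsXAV and at 0.50 FPKM in each CPC library. NPPB, the brain natriuretic peptide gene, had 108 and 122 FPKM against 6.07 and 6.84 FPKM. These genes were singled out after their values were seen, and because HOPX was chosen for its difference, its place among them is no independent evidence.

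On the log2(FPKM + 1) scale, which understates the change of weakly expressed genes, the HOPX level was 3.79 ± 0.04 (SD, n = 2) in ECsXAV and 0.96 ± 0.05 (SD, n = 2) in CPC cardiomyocytes, a difference of -2.83 as CPC minus ECsXAV. The 7 cardiomyocyte markers differed little in sum, but 3 were higher in both ECsXAV libraries and 2 in both CPC libraries. MYL7 made up most of the sum, at 8786 and 8535 FPKM in ECsXAV and 6701 and 7142 FPKM in CPC. MYH6 had 855 and 857 FPKM against 2070 and 1901 FPKM, and MYBPC3 had 401 and 381 FPKM against 198 and 181 FPKM. The sum therefore does not measure cardiomyocyte content. Per 10000 FPKM of these markers HOPX came to 9.90 and 9.72 FPKM in ECsXAV and to 0.803 and 0.696 FPKM in CPC. Scaled in this way the difference was -2.79, about as large as without the scaling.

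A single transcript carried HOPX in all libraries. NM_139211 stood at 12.8 and 11.9 FPKM in ECsXAV and at 0.992 and 0.90 FPKM in CPC, a 13.02-fold ratio of the means. Its share of the summed HOPX transcripts was 97.4% and 94.7% in the ECsXAV replicates, and 99.97% in each CPC replicate. The same transcript led in every library, and its ratio between the groups was close to that of the whole gene.

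The remainder in ECsXAV cardiomyocytes fell on a different transcript in each replicate. NM_032495 had 0.338 FPKM (2.58% of HOPX) in ECsXAV replicate 1 and was at 1.48e-21 FPKM, in effect 0, in ECsXAV replicate 2. NM_139212 had 0.662 FPKM (5.29%) in ECsXAV replicate 2 and was at 1.29e-13 FPKM in ECsXAV replicate 1. Each amounts to about 5 to 11 fragments at the estimated depth. Neither transcript was seen in both replicates of a group, so no level of either can be given for ECsXAV cardiomyocytes as a group. In the CPC libraries neither exceeded 2.26e-20 FPKM. At the CPC level of HOPX, shares as large as these would amount to 0.283 to 1.48 fragments, so at this depth the CPC libraries could not show whether minor transcripts of this size were present.

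**Figure D3:**
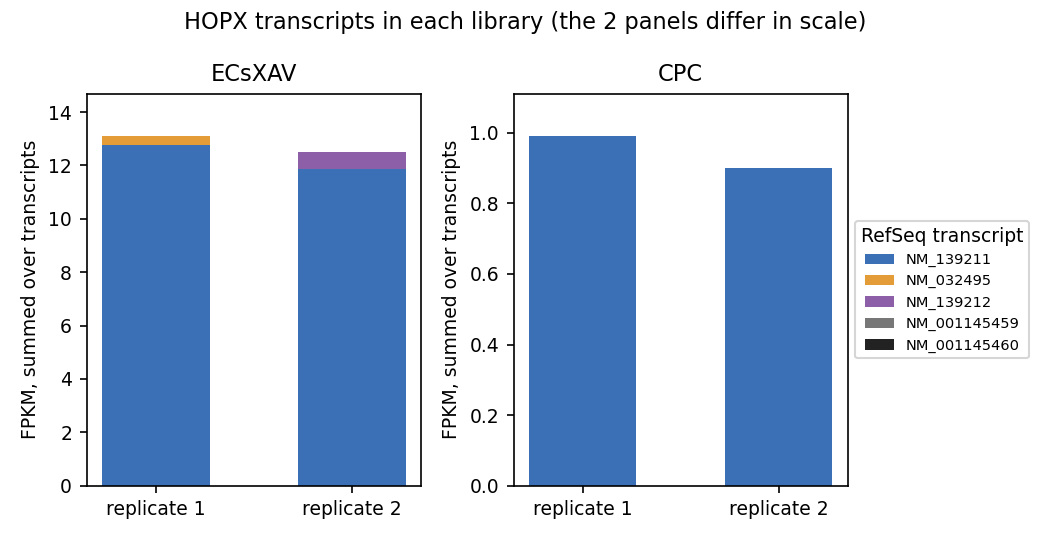
FPKM of the 5 HOPX transcripts stacked for each library, with ECsXAV on the left and CPC on the right on a smaller scale that also starts at 0. NM_139211 fills nearly the whole bar in all 4 libraries, with a thin cap of NM_032495 in ECsXAV replicate 1 and of NM_139212 in ECsXAV replicate 2.

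The other transcripts were at or near nothing. NM_001145460 did not exceed 4.08e-13 FPKM in any library. NM_001145459 was listed at 0.000214 and 0.000428 FPKM in ECsXAV and at 0.000253 and 0.000275 FPKM in CPC, at most 0.00711 of a fragment. Relative to ECsXAV replicate 1 these values were 2.00, 1.18 and 1.29 in the other libraries, beside inverse relative depths of 2.00, 1.15 and 1.25. They thus followed the depth of the library and not the level of HOPX, and are not read as expression.

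The lead of NM_139211 was larger than in most genes with as many transcripts. Of 368 genes with 5 transcripts and a mean of at least 1 FPKM, 211 (57.3%) had the same leading transcript in all libraries. The lowest share of the leading transcript over the libraries was 94.7% for HOPX and had a median of 52.9% over these genes, and 17 genes including HOPX (4.62%) reached the HOPX value. A different transcript in second place in the 2 ECsXAV replicates, as for HOPX, was found in 196 of the genes (53.3%). Cufflinks divides fragments that match several transcripts by likelihood, and transcripts that share most of their exons are the least well separated.

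The factors known to act with or above HOPX had smaller differences between the groups than HOPX, which was itself chosen for its difference. All 15 genes in this list were tested. The criterion was a fold over 2 at a Benjamini-Hochberg adjusted p below 0.05 by limma. It was passed by 0 of them, beside 2.15% of all tested genes, and 2 had an unadjusted p under 0.05, beside 18.2%. For a list of this size, both counts are near the background. The log2 differences of the 15 genes ran from -0.32 to 0.58 with a median of 0.10, beside a median of -0.005 over all tested genes. NKX2-5, which lies upstream of HOPX, stood at 118 and 140 FPKM in ECsXAV and at 128 and 182 FPKM in CPC, a log2 difference of 0.24 (adjusted p = 0.603 from limma, standard error 0.21). The groups overlapped for NKX2-5, and also for GATA4, another cardiac factor, at 99.4 and 105 FPKM against 80.2 and 108 FPKM.

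Among the direct partners, SRF stood at 16.5 and 18.9 FPKM in ECsXAV and at 26.4 and 27.5 FPKM in CPC, a log2 difference of 0.58 (adjusted p = 0.0837 from limma, standard error 0.12). Its libraries did not overlap, with CPC above as for 24.4% of all tested genes, and this was the largest difference of the list, in the direction opposite to HOPX. HDAC2, a histone deacetylase recruited by HOPX, had 24.3 and 22.3 FPKM against 25.9 and 23.9 FPKM. EPC1, a chromatin protein that binds HOPX, had 6.29 and 6.14 FPKM against 6.88 and 7.57 FPKM. All of these partners thus stood above 6 FPKM in both groups, while HOPX was below 1 FPKM in both CPC libraries.

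Some genes known to be activated by SRF were higher in ECsXAV cardiomyocytes. Of 22 genes in this list 20 were tested, 4 passed the criterion with ECsXAV higher, beside 1.44% of all tested genes, and 0 passed with CPC higher, beside 0.71%. Like the other gene lists here, this one was chosen with earlier results of these data known. Its counts and p-values are therefore no independent evidence. An unadjusted p under 0.05 was found for 9 of the 20, beside 18.2%. The background itself turned with the libraries used, since of all tested genes 178 passed with ECsXAV higher and 88 with CPC higher, but 11 and 39 without CPC replicate 1, 16 and 56 without CPC replicate 2, and 8 and 12 without the filter on low FPKM. The median log2 difference of the list was 0.01, and 10 of the 20 genes were lower in CPC cardiomyocytes. NPPA, the atrial natriuretic peptide gene, stood at 264 and 331 FPKM in ECsXAV and at 26.1 and 32.4 FPKM in CPC, a log2 difference of -3.30 (adjusted p = 0.00605 from limma, standard error 0.18). TAGLN, the smooth muscle actin-binding protein transgelin, had 116 and 108 FPKM against 15.8 and 22.6 FPKM, a difference of -2.51 (adjusted p = 0.0127 from limma). ANKRD1, a stretch-responsive sarcomere protein, and CALD1, the actin-binding protein caldesmon, had differences of -1.73 and -1.31 (adjusted p = 0.0239 and 0.032 from limma). All 4 thus differed in the same direction as HOPX. The sarcomeric actin ACTC1 had 1120 and 1108 FPKM against 1259 and 1231 FPKM, a difference of 0.16 (adjusted p = 0.629 from limma). LMOD1, a leiomodin of smooth muscle, had 18.6 and 20.2 FPKM against 31.7 and 29.98 FPKM, a difference of 0.64 (adjusted p = 0.060 from limma). Without ECsXAV replicate 1, ECsXAV replicate 2, CPC replicate 1 or CPC replicate 2, the number of genes of the list past the criterion was 1, 1, 1 and 2, and without the filter on low FPKM it was 0.

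Of 14 targets of Wnt/β-catenin signaling, 9 were tested and 1 passed the criterion with ECsXAV higher, beside 1.44% of all tested genes. An unadjusted p under 0.05 from limma was found for 3 of the 9, all higher in ECsXAV, beside 18.2% of all tested genes in either direction. CCND1, which encodes cyclin D1 and has other inducers as well, stood at 10.04 and 11.9 FPKM in ECsXAV and at 3.73 and 4.53 FPKM in CPC, a log2 difference of -1.22 (adjusted p = 0.0327 from limma, standard error 0.15). It did not pass when any one of the 4 libraries was left out, the count then being 0 without ECsXAV replicate 1, ECsXAV replicate 2, CPC replicate 1 or CPC replicate 2, nor without the filter on low FPKM. TNFRSF19, a receptor of the TNF family, stood at 153 and 119 FPKM in ECsXAV and at 78.4 and 70.4 FPKM in CPC, a log2 difference of -0.85 (adjusted p = 0.0775 from limma). AXIN2, the most general target of the pathway, had 3.98 and 3.58 FPKM against 3.92 and 3.64 FPKM, with a log2 difference of 0.001 and overlapping groups. LEF1, a transcription factor of the pathway and one of its targets, had 8.74 and 8.21 FPKM against 6.65 and 7.01 FPKM (adjusted p = 0.288 from limma). DKK1, a secreted Wnt inhibitor that the pathway induces, was too low to be tested, at 0.986 and 1.24 FPKM against 0.260 and 0.283 FPKM. The median over the 9 genes was 0.001.

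Most genes around HOPX on chromosome 4 had small differences between the groups, and IGFBP7 had a larger one in the direction of HOPX. The gene table held 13 genes within 1 Mb of HOPX, and of the 9 tested, 0 passed the criterion, beside 2.15% of all tested genes, and 1 had an unadjusted p under 0.05 from limma, beside 18.2%. With so few genes, these counts are near the background. The nearest of the table on either side were THEGL, at 44482 bases, with 0 to 0.576 FPKM, and SPINK2, at 127983 bases, with 0 to 0.115 FPKM, both too low to be tested. Of the tested genes, 8 had log2 differences between -0.11 and 0.11. The transcriptional repressor REST, at 225999 bases, stood at 11.3 and 9.90 FPKM in ECsXAV and at 12.5 and 8.48 FPKM in CPC. IGFBP7, a secreted IGF-binding protein at 348896 bases, stood at 32.8 and 43.8 FPKM in ECsXAV and at 14.02 and 17.7 FPKM in CPC, a log2 difference of -1.22 (adjusted p = 0.0531 from limma, standard error 0.19). Its libraries did not overlap, with ECsXAV above as for 25.4% of all tested genes. With a pseudocount of 0.1, or without microRNA and small nucleolar RNA genes, IGFBP7 passed the criterion. It did not pass with quantile normalization, with a mean of at least 5 FPKM or without the filter on low FPKM.

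**Figure D4:**
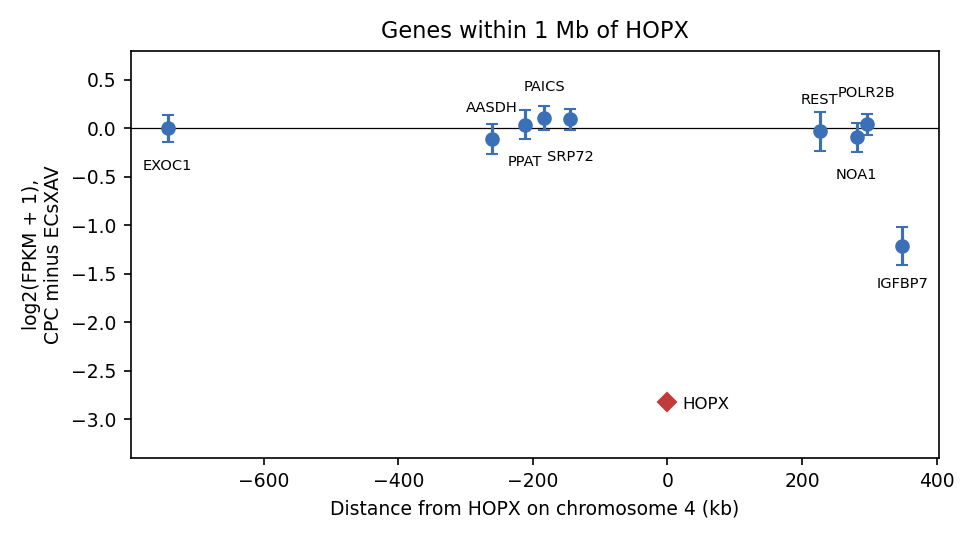
Difference in log2(FPKM + 1), CPC minus ECsXAV, of the 9 tested genes within 1 Mb of HOPX against their distance in kb from HOPX on chromosome 4, with bars for the standard error from limma and HOPX as a diamond without a bar. HOPX lies at -2.83 and IGFBP7 at -1.22, and the other 8 genes lie between -0.11 and 0.11.

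The genes whose levels ran most like HOPX over the 4 libraries were found by the Euclidean distance between centred log2(FPKM + 0.1) profiles, among 12087 other genes with a mean of at least 1 FPKM, microRNA and small nucleolar RNA genes left out. The median distance was 3.63. COL12A1, a fibril-associated collagen, was nearest at 0.213, with 3.18 and 2.70 FPKM in ECsXAV and 0.125 and 0.144 FPKM in CPC. LUM, the matrix proteoglycan lumican, lay at 0.433, with 8.21 and 10.7 FPKM against 0.652 and 0.473 FPKM. NPPA lay at 0.509, and CNTN1, a neural cell adhesion protein, at 0.519, with 2.49 and 2.11 FPKM against 0.184 and 0.166 FPKM. With only 4 libraries in 2 groups, likeness here means little more than a similar ratio between the groups and similar replicates. COL12A1, LUM and CNTN1, like HOPX, were under 1 FPKM in both CPC libraries and reached the mean of 1 FPKM only through ECsXAV. HOPX was also chosen by the same values that make up its profile, so these distances are no independent evidence.

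**Figure D5:**
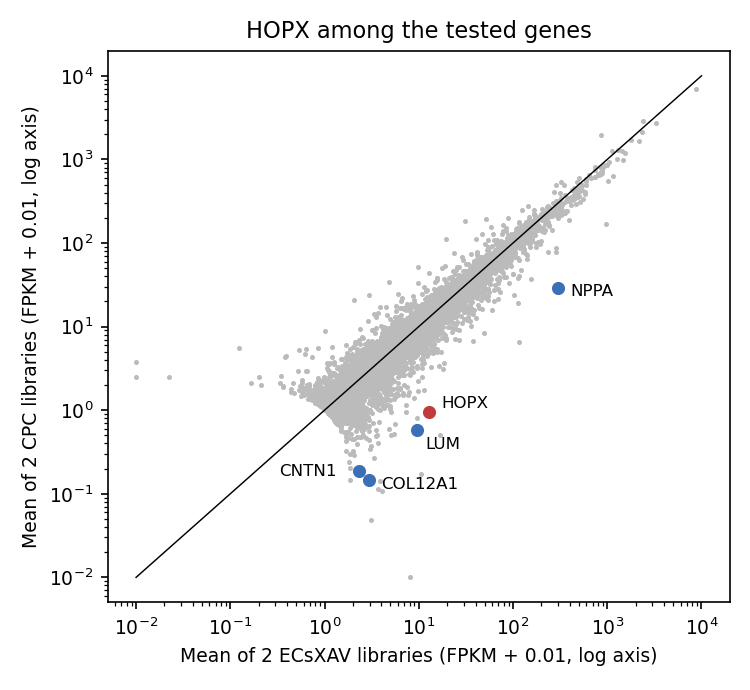
Mean FPKM of the 2 CPC libraries against that of the 2 ECsXAV libraries for the tested genes other than microRNA and small nucleolar RNA genes (grey), on log axes with 0.01 added and a line of equal levels. HOPX (red) and 4 of the 5 genes with the most similar profiles (blue) lie below the line, with ECsXAV to CPC ratios of 10.2 to 21.8.

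Some markers of other cell types were also at higher levels in both ECsXAV libraries. The summed endothelial and extraembryonic markers overlapped between the groups, but most of the endothelial sum came from KDR. Of 8 fibroblast and mural markers, 7 had both ECsXAV libraries above both CPC libraries, with summed levels of 106 and 141 FPKM in ECsXAV against 50.9 and 44.3 FPKM, and TCF21 was under 0.1 FPKM in every library. Of 12 markers of endoderm and epithelium, 10 had ECsXAV above CPC. KRT8 and KRT18 were listed at 0 in 1 library of each group beside 31.4 to 99.0 FPKM in the other, and without them the sums were 289 and 344 FPKM against 143 and 200.1 FPKM. Of 7 blood markers 4 had ECsXAV above CPC, with sums of 4.06 and 6.65 FPKM against 1.58 and 1.09 FPKM, while PTPRC, which marks white blood cells, was under 0.1 FPKM in every library. Of 10 endothelial markers 5 had ECsXAV above CPC and 1 the reverse, and of 6 markers of extraembryonic ectoderm 4 had ECsXAV above CPC, at sums of 0.956 to 2.13 FPKM. Many of these markers were too low to be tested. Of those with a mean of at least 1 FPKM, ECsXAV lay above CPC for 3 of 4 fibroblast and mural, 6 of 8 endoderm and epithelial, 1 of 2 blood and 1 of 3 endothelial markers, beside 25.4% of all tested genes. HBE1, CDH5, TTR, AFP and LUM were under 1 FPKM in both CPC libraries and reached that mean only through ECsXAV. These counts therefore lean towards ECsXAV and are given as a description. No extraembryonic marker reached that mean. The part of these cells in the HOPX difference was not tested.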

How the data were processed

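RNA-seq of 4 libraries, 2 ECsXAV and 2 CPC, was analysed. The authors made poly-A libraries and deposited FPKM per gene and per RefSeq transcript, computed with Cufflinks, UCSC annotations and hg19. The submitters' processing notes also name TopHat 1.3.3, while the paper names Gsnap for its separate count test. Scaling between libraries and the use of strand for the FPKM are not given in the sources used here. Groups came from the cell type labels and replicate numbers from the sample titles. For symbols with several loci the row with the highest mean FPKM was used.

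Members and gene lists were chosen with earlier results of these data known. The groups were compared on log2(FPKM + 1) by the two-sided moderated test of limma (version 3.58.1, R version 4.3.3), in which the prior variance followed the mean level. It was run on 12398 genes whose mean reached 1 FPKM, p was adjusted over all of them by Benjamini and Hochberg's method, and the criterion was a fold over 2 at an adjusted p below 0.05. With 2 libraries against 2, an exact two-sided permutation test gives at least 0.333, and the limma p-values draw on variance pooled over genes and measure the spread between these samples. The title prefix differs between the groups, and any effect of the experiment it may mark cannot be told apart from the group. The limma fit was tested on simulated data with known changes. Depth was estimated from genes of over 1500 bases with a single transcript and under 0.15 FPKM, as the most frequent 1-fragment step after subtracting 220 bases from each GENCODE length. Named genes were HOPX and its transcripts, list members past the criterion with at most 5 more per list, the nearest neighbours on each side and the 5 nearest profiles, of which 4 are reported here. REST and IGFBP7 among the neighbours, TGFBI and NPPB were named after their values were seen. Other steps used Python 3.11.15, pandas 2.3.3, NumPy 2.4.6, SciPy 1.17.1 and matplotlib 3.10.9.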

Additional observations from a re-analysis of the deposited data

How the results depend on the processing

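The HOPX difference on the log2 scale was -2.83. With a pseudocount of 0.1 it was -3.63, as a smaller added value compresses the low CPC levels less. With median-of-ratios scaling, quantile normalization, scaling to the cardiomyocyte markers, or any library left out, it lay between -2.86 and -2.79. The transcripts summed to the gene value in every library. The difference from that sum (-2.83) and a share taken of the gene value are therefore no separate checks. The share of NM_139211 lay between 94.7% and 97.4% in ECsXAV and at 99.97% in CPC when a replicate was left out. Its share of fragments was not run, since lengths of the RefSeq transcripts were not used here.

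Of all tested genes 266 passed the criterion, against 20 without the filter on low FPKM, 152 with a mean of at least 5 FPKM and 50 to 118 when a library was left out, where the lone library of a group is assumed to vary like the others. Why these counts fell was not tested. Without the filter 0 SRF and 0 Wnt targets passed, and when a library was left out 1 to 2 SRF targets and 0 Wnt targets passed. Of the genes near HOPX, 1 (IGFBP7) passed with a pseudocount of 0.1, and 1 passed without microRNA and small nucleolar RNA genes. The count was 0 with quantile normalization, with a mean of at least 5 FPKM and without the filter on low FPKM. The partner and upstream list had 0 under every alternative run. The replicate numbers are shared between the groups without a stated pairing. When the replicate number entered as a block, 176 genes passed, 1 gene near HOPX (IGFBP7, adjusted p = 0.0353 from limma) among them, and the rank correlation across genes between the replicate 1 minus 2 differences of the groups was 0.356 (Pearson's r 0.035).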
